A study of Mus musculus with 6 samples.

Results

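The genes described here act in the repair of DNA double-strand breaks and in the checkpoint signalling that such breaks set off. They were chosen by name, 44 of the 24421 genes in the count table, and fall into 15 genes of end joining, 15 of homologous recombination and 14 of checkpoint signalling. All 44 were found in the table. RNA-seq measured them in the kidney cortex of mice with I-PpoI expression in proximal tubular epithelial cells, labelled PT-I_Ppo-1 and called PT-I-PpoI here, and of Wild-Type mice, with 3 libraries in each group. I-PpoI is a homing endonuclease, and its cuts at its long target sequence are double-strand breaks. The promoter that drives the enzyme, the strain, age and sex of the mice and the level of the transgene are not given in the sources used here. Nor is it stated that the libraries of a group come from separate mice. The p-values thus cover the spread between these samples only, which may be technical.

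The libraries held from 13582540 to 20861021 counted read pairs. Of the 6 library names, 3 end in a hyphen and a number (those of PT-I-PpoI replicate 3 and of replicates 2 and 3 of wild type) and 3 do not. The labels do not say what this marks, but the first principal component of log2 CPM, with 43.1% of the variance, separated these forms of name, and wild type replicate 1 stood apart on the second, with 19.5%. Markers of the proximal tubule were abundant in every library. The phosphate transporter Slc34a1 averaged 4883 ± 1467 CPM in PT-I-PpoI cortex and 6799 ± 1299 CPM in wild type cortex (SD, n = 3 each), where CPM is the read pair count relative to the scaled library total. The cortex was measured whole, so fewer cells of a type and less RNA per cell cannot be told apart, and RNA of cells without the enzyme is part of every value.

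A cell joins broken DNA ends by several routes. In classical end joining, the Ku heterodimer (Xrcc5 and Xrcc6) binds each end and recruits the kinase DNA-PKcs (Prkdc), and the ends are trimmed, filled and sealed by the Xrcc4 and Lig4 ligase. Alternative end joining uses short matching stretches and the polymerase made from Polq, while homologous recombination copies a sister chromatid and is therefore tied to the S and later phases of the cell cycle. The MRE11, RAD50 and NBN complex and the kinases ATM and ATR sense the break, mark chromatin through histone H2AX and halt the cycle through CHK1, CHK2 and WEE1. Most of this signalling is known to run through phosphorylation and ubiquitin marks on proteins, which RNA levels do not show.

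The promoter sequences of 4 of these genes are shown: Xrcc5 and Xrcc6, which encode the subunits of Ku, and Polq and Chek1. Polq had the lowest fold change of the 40 repair and checkpoint genes that could be tested. Chek1 was the least abundant checkpoint gene. Each sequence runs 5′ to 3′ along the gene's strand from 250 bases before to 50 bases after the annotated start (RefSeq, GRCm38.p6). The start site is thus position 251. Capitals mark matches to the core of the E2F motif (GCGGGAA, or TTCCCGC for the other strand) or to the CCAAT box (CCAAT, or ATTGG for the other strand). E2F factors are known for driving genes of DNA replication and the cell cycle.
Xrcc5, chr1:72307171-72307470, plus strand: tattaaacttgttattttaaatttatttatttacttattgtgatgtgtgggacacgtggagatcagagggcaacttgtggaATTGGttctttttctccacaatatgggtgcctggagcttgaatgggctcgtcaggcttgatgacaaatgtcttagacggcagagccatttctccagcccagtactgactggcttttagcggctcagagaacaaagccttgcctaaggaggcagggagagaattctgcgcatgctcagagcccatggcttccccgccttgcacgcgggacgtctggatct
Xrcc6, chr15:82016119-82016418, plus strand: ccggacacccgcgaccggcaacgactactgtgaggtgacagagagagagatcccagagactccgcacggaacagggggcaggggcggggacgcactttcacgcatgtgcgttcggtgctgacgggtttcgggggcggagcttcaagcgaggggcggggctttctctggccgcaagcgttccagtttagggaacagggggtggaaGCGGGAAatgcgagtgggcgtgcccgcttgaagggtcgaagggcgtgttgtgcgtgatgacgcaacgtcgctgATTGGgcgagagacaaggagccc
Polq, chr16:37011536-37011835, plus strand: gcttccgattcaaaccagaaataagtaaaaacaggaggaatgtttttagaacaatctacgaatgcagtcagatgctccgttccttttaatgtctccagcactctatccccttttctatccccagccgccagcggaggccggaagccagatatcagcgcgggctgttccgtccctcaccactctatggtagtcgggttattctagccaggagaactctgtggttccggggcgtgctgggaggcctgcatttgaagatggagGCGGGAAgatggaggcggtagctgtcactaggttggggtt
Chek1, chr9:36726609-36726908, minus strand: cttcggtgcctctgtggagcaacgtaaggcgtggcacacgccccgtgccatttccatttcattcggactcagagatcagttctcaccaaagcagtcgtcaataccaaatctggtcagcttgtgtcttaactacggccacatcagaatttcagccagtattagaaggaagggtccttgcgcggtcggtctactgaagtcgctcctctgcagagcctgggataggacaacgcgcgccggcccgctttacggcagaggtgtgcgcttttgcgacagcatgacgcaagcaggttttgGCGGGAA
In these windows the E2F core begins at position 205 in Xrcc6, at position 261 in Polq and at position 294 in Chek1, and the Xrcc5 window holds a CCAAT box only, at position 82. The Xrcc6 window also holds a CCAAT box, at position 278.

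The promoter table matched 32 of the 44 genes, with 36 windows. The E2F core was in 13 of the 36 windows (36.1%), against 7.81% of the windows of all genes tested and 4.6% of the 32851 windows in the table. These were the windows of Atm, Bard1, Brca2, Chek1, Chek2, Mdc1, Polq, Rad51c, Rad52, Rnf168, Rnf8, Xrcc4 and Xrcc6. The other motifs searched were nearer to their share over all tested genes: the CCAAT box was in 52.8% of the 36 windows against 37.0%, the GC box (GGGCGG, or CCGCCC for the other strand) in 72.2% against 60.02%, and the cell cycle element CHR (TTTGAA, or TTCAAA for the other strand) in 11.1% against 11.99%. A GC box match can share bases with a match to the E2F core. Genes with the E2F core had a median of 2.42 FPKM (read pairs per kilobase of exon on the scaled total) and genes without it 2.56 FPKM. Of those tested, the 12 with the core had a median log2 fold change of -0.05 and the 17 without it a median of -0.08. A match to these letters is a description of the sequence and does not show that a factor binds there.

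No gene of double-strand break repair or checkpoint signalling passed the test in PT-I-PpoI cortex. Of the 40 that were abundant enough to test, 0 were higher and 0 were lower at an adjusted p under 0.05 in edgeR's quasi-likelihood test, where 0.136% of all 13977 tested genes were higher and 0% lower. DESeq2, limma-voom and limma on the authors' log2 values also called 0. At an unadjusted p under 0.05 edgeR gave 2 lower (Xrcc5 and Polq) and 0 higher, against 5.61% of all tested genes lower and 6.42% higher, and DESeq2 gave 0. The median log2 fold change of the 40 was -0.05, with 13 above 0 and 27 below. Over all 13977 tested genes, 7004 were above 0 and 6973 below. Below 0 were 9 of 15 end joining genes, 7 of 11 of homologous recombination and 11 of 14 of checkpoint signalling. The median size of the change of the 40 genes, whatever its sign, was 0.12, against 0.13 over all tested genes.

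The precision allowed a bound for most of them. For 30 of the 40 genes (75%) the 95% interval of the difference lay within 1.5-fold either way, which held for 66% of all tested genes. The 10 whose interval reached past 1.5-fold were Nhej1, Dclre1c, Polq, Brca1, Brca2, Palb2, Rad51c, Blm, Chek1 and Wee1. They had a median of 213 read pairs over all 6 libraries, against 1586 for the other 30. Polq was the only one whose own estimate passed 1.5-fold, which 5.11% of all tested genes did.

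**Figure D1:**
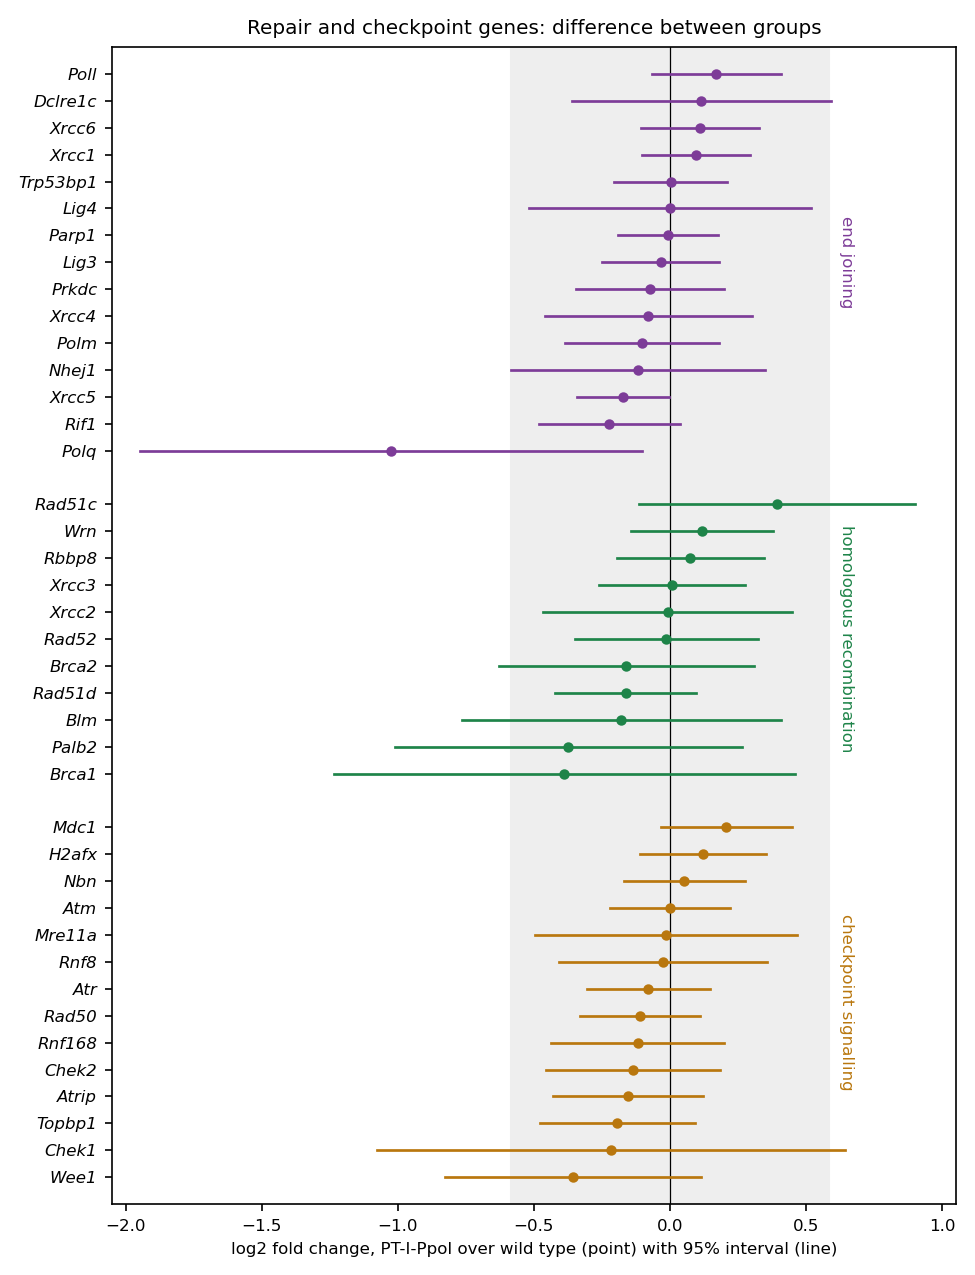
Differences between the groups for the 40 tested genes, by class. The x axis gives the log2 fold change of PT-I-PpoI over wild type (3 libraries each), points are edgeR estimates, lines are 95% intervals and the grey band marks 1.5-fold either way. The intervals of Xrcc5 and Polq end below 0, and 30 of the 40 intervals lie within the band.

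Levels per length were compared as FPKM, read pairs per kilobase of exon on the same scale as CPM. The median over the 44 genes was 2.52 FPKM over all 6 libraries, and levels ran from 0.0264 FPKM for Exo1, an exonuclease that lengthens resected ends, to 24.2 FPKM for Xrcc5. End joining genes had a median of 4.55 FPKM, checkpoint genes 2.71 FPKM and homologous recombination genes 0.310 FPKM. Of the 11 genes under 1 FPKM, 9 were of homologous recombination, 1 was of end joining (Polq) and 1 was a checkpoint gene (Chek1). Only 7 of the 44 genes, 5 of end joining and 2 of checkpoint signalling, stood above the median level of the genes tested. The median of end joining was the highest and that of homologous recombination the lowest of the 3 classes in all 6 libraries.

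**Figure D2:**
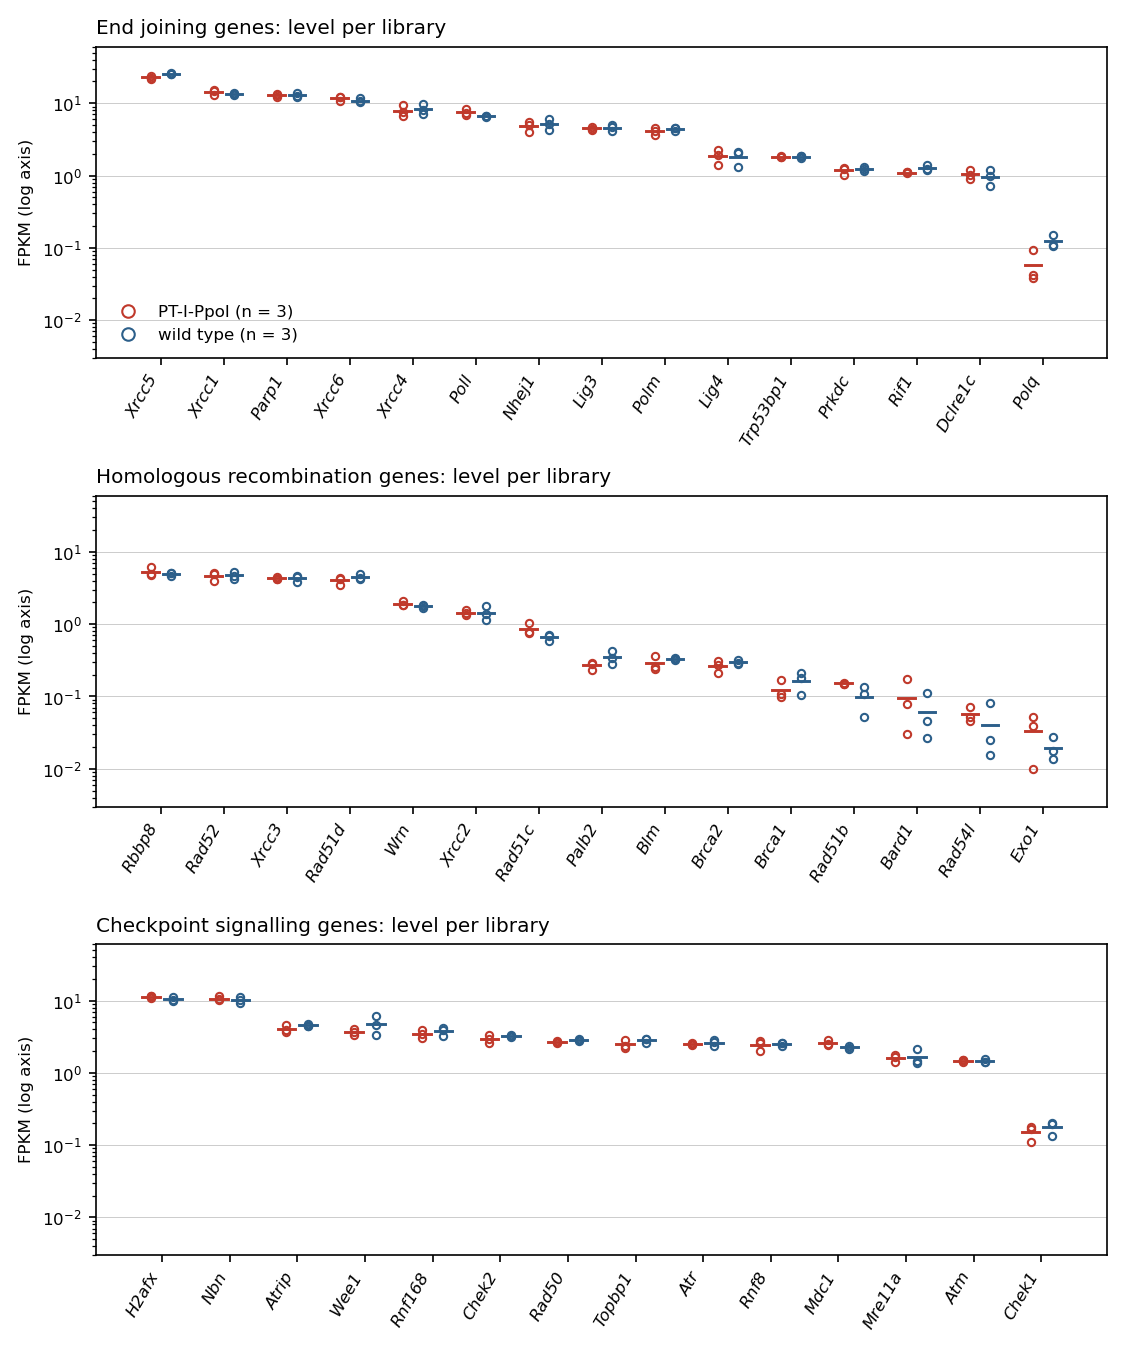
Level of each gene in every library, in FPKM on a log axis, with genes in order of their mean within each class. Circles are single libraries, with PT-I-PpoI left of wild type (n = 3 each), and short lines are means. Most of the 15 homologous recombination genes shown sit below 1 FPKM, and the groups overlap for most genes.

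Among the end joining genes, the subunits of Ku had estimates of opposite sign, and neither passed the test. Xrcc5 (Ku80, chr1:72307421-72394953) had 57.8, 55.1 and 61.7 CPM in PT-I-PpoI cortex, against 66.8, 63.9 and 65.8 CPM in wild type cortex. Every PT-I-PpoI library was below every wild type library. The estimate was 0.887 of the wild type level with a 95% interval of 0.789 to 0.998 (log2 fold change -0.17 ± 0.07 SE), and the adjusted p was 0.410 (unadjusted p = 0.046). Its partner Xrcc6 (Ku70, chr15:82016369-82040084) had 25.5, 26.2 and 23.0 CPM in PT-I-PpoI cortex, against 22.4, 22.0 and 24.8 CPM in wild type cortex. These groups overlap, and the log2 fold change was 0.11 ± 0.10 (adjusted p = 0.655).

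For the rest of the classical route the estimates were smaller than their SE, except for Poll. Prkdc, the DNA-PKcs kinase, averaged 1.21 FPKM with a log2 fold change of -0.07 ± 0.12 SE. Lig4, the ligase that seals the ends, averaged 1.84 FPKM with a log2 fold change of 0.00 ± 0.23, and its scaffold Xrcc4 averaged 8.13 FPKM with -0.08 ± 0.17. Nhej1 (XLF), which bridges the ends beside Xrcc4, had a log2 fold change of -0.12 ± 0.21, and Dclre1c (Artemis), the nuclease that opens hairpin ends, one of 0.12 ± 0.21. All of these intervals include 0. Of the gap-filling polymerases, Polm had a log2 fold change of -0.10 ± 0.12. Poll (chr19:45552276-45560543) had 16.3, 19.2 and 16.9 CPM in PT-I-PpoI cortex, against 15.8, 15.7 and 15.04 CPM in wild type cortex. The groups do not overlap, and the log2 fold change of 0.17 ± 0.10 did not pass the test (adjusted p = 0.523).

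Trp53bp1 (53BP1) and Rif1 are known to protect ends from resection and so to favour end joining over homologous recombination. Trp53bp1 averaged 17.6 ± 0.356 CPM in PT-I-PpoI cortex and 17.6 ± 0.607 CPM in wild type cortex (SD, n = 3 each), with a 95% interval of the log2 fold change of -0.20 to 0.21. Of its exon bases, 22.1% overlap those of Tubgcp4 on the opposite strand, and counting was unstranded. Rif1 (chr2:52072837-52122381) had 9.37, 9.38 and 9.21 CPM in PT-I-PpoI cortex, against 11.8, 10.6 and 10.2 CPM in wild type cortex. Its PT-I-PpoI libraries were close together and all below the wild type ones, and the log2 fold change of -0.22 ± 0.11 had an adjusted p of 0.457.

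Genes of alternative end joining and single-strand break repair, which share factors, ranged from close bounds for Parp1 to a wide interval for Polq. Parp1, which senses breaks and recruits repair factors, averaged 49.2 ± 2.14 CPM in PT-I-PpoI cortex and 49.4 ± 3.30 CPM in wild type cortex (SD, n = 3 each), with a 95% interval of the log2 fold change of -0.19 to 0.18. Its scaffold partner Xrcc1 (chr7:24547150-24573438) had 28.5, 31.4 and 33.0 CPM in PT-I-PpoI cortex, against 28.2, 30.2 and 28.6 CPM in wild type cortex, and these groups overlap. The log2 fold change of Xrcc1 was 0.09 ± 0.09 (adjusted p = 0.672), and that of the ligase Lig3 was -0.03 ± 0.09.

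Polq (chr16:37011786-37095417), whose polymerase joins ends at short matching stretches, was near the lower limit of what these libraries measured. It had 15, 6 and 5 read pairs in PT-I-PpoI cortex, against 19, 17 and 19 in wild type cortex. On the scaled library total these were 0.794, 0.331 and 0.354 CPM in PT-I-PpoI cortex and 0.915, 1.29 and 0.946 CPM in wild type cortex, and the groups do not overlap. The estimate was 0.492 of the wild type level with a 95% interval of 0.259 to 0.932 (log2 fold change -1.02 ± 0.40), and the adjusted p was 0.385 (unadjusted p = 0.033). It rests on 81 read pairs in all, and leaving out PT-I-PpoI replicate 1 gave a log2 fold change of -1.58 (adjusted p = 0.475). Leaving out PT-I-PpoI replicate 2 gave -0.79 and leaving out replicate 3 gave -0.86. With limma on the authors' log2 values it was -0.08. Over all alternatives that tested it, its adjusted p ran from 0.286 to 0.807.

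Of the 15 homologous recombination genes chosen here, 9 were under 1 FPKM, and no tested gene of the class passed the test. The low median is that of the chosen genes. The 32 further genes of the pathway in the wider list ran from 0.0229 FPKM (Rmi2) to 214 FPKM (Swi5). Brca1 (chr11:101488764-101551955), which promotes resection and the loading of the recombinase, had 21, 12 and 10 read pairs in PT-I-PpoI cortex, against 29, 16 and 14 in wild type cortex. Scaled, it had 1.11, 0.662 and 0.709 CPM in PT-I-PpoI cortex, against 1.397, 1.21 and 0.697 CPM in wild type cortex. The groups overlap, and the log2 fold change of -0.39 ± 0.37 had an adjusted p of 0.680. Its partner Palb2 (chr7:122107262-122132946), which links Brca1 to Brca2, had 1.16, 1.10 and 0.921 CPM in PT-I-PpoI cortex, against 1.11, 1.36 and 1.69 CPM in wild type cortex. These overlap too, with a log2 fold change of -0.37 ± 0.28 (adjusted p = 0.597). Brca2, which loads the recombinase on resected ends, averaged 0.280 FPKM, with a log2 fold change of -0.16 ± 0.21.

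The paralogs of the recombinase, which assist its filaments, differed among themselves in level and in the sign of the estimate. Rad51c (chr11:87377607-87404954) had 2.54, 3.48 and 2.55 CPM in PT-I-PpoI cortex, against 1.93, 2.35 and 2.29 CPM in wild type cortex. Every PT-I-PpoI library was above every wild type library, and the log2 fold change of 0.39 ± 0.22 had an adjusted p of 0.492. Rad51d (chr11:82871961-82890624), which acts in a complex with Rad51c, had 32.8, 33.5 and 26.7 CPM in PT-I-PpoI cortex, against 38.6, 32.3 and 33.3 CPM in wild type cortex. Here the groups overlap, and the estimate was below 0, at -0.16 ± 0.11 (adjusted p = 0.568). Xrcc2 had a log2 fold change of -0.01 ± 0.20 and Xrcc3 one of 0.01 ± 0.12.

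Of the genes that start and finish recombination, Rbbp8 (CtIP, chr18:11633276-11743207), which begins the resection of ends, had the highest level of the class per exon length, at 5.09 FPKM. It had 19.0, 18.4 and 23.7 CPM in PT-I-PpoI cortex, against 20.0, 19.6 and 18.4 CPM in wild type cortex. The groups overlap. Its log2 fold change was 0.07 ± 0.12 (adjusted p = 0.819). Rad52 (chr6:119902698-119922823), which anneals single strands, had 9.74, 10.1 and 7.80 CPM in PT-I-PpoI cortex, against 8.33, 10.4 and 9.31 CPM in wild type cortex. The groups overlap, with a log2 fold change of -0.01 ± 0.15 (adjusted p = 0.980). The helicases Blm and Wrn, which unwind recombination intermediates, had log2 fold changes of -0.18 ± 0.26 and 0.12 ± 0.11.

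The expression filter left out 4 genes, all of homologous recombination, so that no test was made for them. Bard1, the partner of Brca1 in a ubiquitin ligase, had 18, 3 and 6 read pairs in PT-I-PpoI cortex, against 3, 8 and 5 in wild type cortex. A single PT-I-PpoI library thus held the highest count, and the groups overlap. Rad51b, a paralog of the recombinase, had 8, 8 and 6 read pairs in PT-I-PpoI cortex, against 8, 4 and 3 in wild type cortex. Rad54l, a motor protein of strand exchange, had 3, 4 and 2 read pairs in PT-I-PpoI cortex, against 1, 1 and 5 in wild type cortex. Exo1 had 4, 1 and 4 read pairs in PT-I-PpoI cortex, against 2, 1 and 3 in wild type cortex. Differences of the size of a few read pairs were not detectable at this depth. Of these genes, Rad51b alone had groups that do not overlap once scaled, at 0.423, 0.441 and 0.425 CPM in PT-I-PpoI cortex against 0.385, 0.303 and 0.149 CPM in wild type cortex.

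Of the checkpoint genes that sense breaks, Atm, Nbn and Mre11a had estimates smaller than their SE, and Rad50 had one slightly larger than its SE. Atm, the kinase that answers double-strand breaks, averaged 17.5 ± 0.652 CPM in PT-I-PpoI cortex and 17.5 ± 1.02 CPM in wild type cortex (SD, n = 3 each), with a 95% interval of 0.858 to 1.16 of the wild type level. Nbn (chr4:15957967-15992589), which brings Atm to the break, had 25.1, 28.5 and 26.1 CPM in PT-I-PpoI cortex, against 27.6, 23.4 and 25.7 CPM in wild type cortex. The groups overlap, with a log2 fold change of 0.05 ± 0.10 (adjusted p = 0.845). Rad50 (chr11:53649519-53707319), the zinc hook subunit of the same complex, had 13.7, 14.1 and 13.5 CPM in PT-I-PpoI cortex, against 14.8, 14.4 and 15.3 CPM in wild type cortex. These groups do not overlap, and the log2 fold change of -0.11 ± 0.10 had an adjusted p of 0.661. The nuclease subunit Mre11a had a log2 fold change of -0.01 ± 0.21.

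The genes for the chromatin marks at breaks leaned both ways. H2afx (chr9:44334715-44336073), the histone that Atm phosphorylates around a break, had 15.6, 15.7 and 14.6 CPM in PT-I-PpoI cortex, against 13.6, 15.1 and 13.6 CPM in wild type cortex. The groups overlap at 1 wild type library, and the log2 fold change was 0.12 ± 0.10 (adjusted p = 0.641). Mdc1 (chr17:35841498-35859670), the adaptor that reads this mark, had 18.0, 18.2 and 21.0 CPM in PT-I-PpoI cortex, against 15.6, 16.4 and 17.4 CPM in wild type cortex. All PT-I-PpoI libraries were above all wild type libraries, yet the log2 fold change of 0.21 ± 0.11 had an adjusted p of 0.456. The ubiquitin ligases that follow, Rnf8 and Rnf168, had log2 fold changes of -0.03 ± 0.17 and -0.12 ± 0.14. Rnf8 shares 78.4% of its exon bases with the annotated read-through gene Rnf8-cmtr1 on the same strand, so its count is uncertain. Smaller shares of exon bases overlap another gene in Lig3 (7.64%, Rffl), Rad54l (5.04%, Lrrc41), Dclre1c (3.38%, Suv39h2) and Atr (2.32%, 1700065D16Rik).

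None of the checkpoint kinases and their partners among the 44 genes passed the test. Topbp1 (chr9:103305327-103350427), which activates Atr, had 11.4, 11.9 and 14.5 CPM in PT-I-PpoI cortex, against 14.9, 13.4 and 14.8 CPM in wild type cortex. The groups overlap through PT-I-PpoI replicate 3, and the log2 fold change of -0.19 ± 0.12 had an adjusted p of 0.541. Atrip (chr9:109059747-109074124), the subunit that brings Atr to single-stranded DNA, had 10.1, 11.7 and 9.57 CPM in PT-I-PpoI cortex, against 12.2, 11.4 and 11.3 CPM in wild type cortex. Its log2 fold change was -0.16 ± 0.12 (adjusted p = 0.610), and that of Atr was -0.08 ± 0.10. Chek1, the kinase that Atr activates, had 7, 11 and 8 read pairs in PT-I-PpoI cortex, against 14, 9 and 9 in wild type cortex. With so few read pairs the 95% interval of its log2 fold change ran from -1.08 to 0.64. Chek2, the kinase that Atm activates, averaged 3.08 FPKM with a log2 fold change of -0.14 ± 0.14.

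Wee1 (chr7:110122059-110143299), the kinase that holds back entry into mitosis, varied widely among the wild type libraries. It had 12.6, 11.3 and 13.9 CPM in PT-I-PpoI cortex, against 11.5, 21.2 and 15.9 CPM in wild type cortex. The groups overlap, with the lowest value in a PT-I-PpoI library, and the log2 fold change of -0.36 ± 0.21 had an adjusted p of 0.502. Within each group the libraries with a hyphen in the name were the higher ones, by 0.46 ± 0.16 (log2, SE) with the group as a term.

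In all, 7 of the 40 tested genes (17.5%) had groups that do not overlap, 3 with PT-I-PpoI higher (Poll, Rad51c and Mdc1) and 4 with it lower (Xrcc5, Rif1, Polq and Rad50). Over all tested genes, 17% did not overlap, 9.23% with PT-I-PpoI higher and 7.74% with it lower. The share among the repair and checkpoint genes was thus near that of all genes.

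The summed levels of the classes differed by a few percent. Summed over its genes, end joining had 286, 298 and 293 CPM in PT-I-PpoI cortex, against 301, 294 and 301 CPM in wild type cortex. Homologous recombination had 98.6, 103 and 93.8 CPM in PT-I-PpoI cortex, against 106, 96.8 and 97.9 CPM in wild type cortex. Checkpoint signalling had 178, 179 and 184 CPM in PT-I-PpoI cortex, against 182, 189 and 189 CPM in wild type cortex. The groups overlap in all 3 sums, and every library lay between 93.6% and 105.8% of the wild type mean of its class. Summed over all 44 genes, PT-I-PpoI libraries had 562.7, 579.5 and 571.1 CPM, against 589.6, 579.98 and 588.1 CPM in wild type libraries. These groups do not overlap, though 579.5 and 579.98 CPM are close. In wild type cortex, Xrcc5 averaged 65.5 of the 299 CPM of end joining. Rad51d averaged 34.7 of the 100.3 CPM of homologous recombination there. The median log2 fold change was -0.03 for end joining, -0.01 for homologous recombination and -0.09 for checkpoint signalling, against 0.00 over all tested genes.

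Wider lists of the same pathways, with genes outside the 44, also held 0 genes past the adjusted threshold in edgeR. At an unadjusted p under 0.05, the 13 further end joining genes tested held 1 with a higher level and 1 with a lower level, where 6.42% of all tested genes were higher and 5.61% lower. Aplf, which binds Ku and holds the ligase complex, averaged 7.005 ± 0.694 CPM in PT-I-PpoI cortex and 5.598 ± 0.252 CPM in wild type cortex (adjusted p = 0.414). Setmar averaged 5.604 ± 0.303 CPM in PT-I-PpoI cortex and 7.46 ± 1.13 CPM in wild type cortex (adjusted p = 0.368). Their estimates point in opposite directions, and Parp2, a relative of Parp1, had a log2 fold change of 0.34 ± 0.18.

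Among 25 further homologous recombination genes tested, that level was reached by 1 with a higher value and by 0 with a lower one, against the same shares of all tested genes. This was Rpa3, a subunit of the RPA complex that coats single strands, with 11.1 ± 1.34 CPM in PT-I-PpoI cortex and 8.79 ± 0.276 CPM in wild type cortex (adjusted p = 0.364). The helicase gene Mcm8 had a log2 fold change of 0.42 ± 0.21 and Shfm1, a partner of Brca2, one of 0.13 ± 0.08. Of 28 further checkpoint genes tested, 2 with higher and 2 with lower values reached it, where 12% of all tested genes did in either direction. The estimates of these 28 were above 0 for 16 and below 0 for 12. Timeless, a replication fork protein, averaged 5.58 ± 0.741 CPM in PT-I-PpoI cortex and 3.87 ± 0.346 CPM in wild type cortex (adjusted p = 0.318). Rad9a, a part of the clamp that activates Atr, averaged 10.03 ± 0.873 CPM in PT-I-PpoI cortex and 7.71 ± 0.277 CPM in wild type cortex (adjusted p = 0.318). Brcc3, which removes ubiquitin chains at breaks, had 33.5, 34.6 and 37.1 CPM in PT-I-PpoI cortex, against 43.9, 43.2 and 40.0 CPM in wild type cortex (adjusted p = 0.268). Of the 28 genes, 21.4% had groups that do not overlap, 4 with PT-I-PpoI higher and 2 with it lower, against 17% of all tested genes. These last 3 genes, named for their small p, were among them. The medians of the wider lists were 0.03, 0.06 and 0.04 on the log2 scale for end joining, homologous recombination and checkpoint signalling.

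Markers of dividing cells and of other cell types were measured in the same libraries. Those of dividing cells had a summed level of 95.3 ± 4.96 CPM in PT-I-PpoI cortex and 90.6 ± 3.5 CPM in wild type cortex (SD, n = 3 each), with 12 of 14 tested, 6 above 0 and 6 below. Pcna, the replication clamp, averaged 44.7 ± 1.81 CPM in PT-I-PpoI cortex and 42.9 ± 3.47 CPM in wild type cortex. Tyms, an enzyme of thymidylate synthesis, averaged 20.5 ± 4.08 CPM in PT-I-PpoI cortex and 17.2 ± 1.49 CPM in wild type cortex. None of the markers of dividing cells passed the test.

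Of the nephron segments, 2 held markers that passed the test, all higher in PT-I-PpoI cortex, as were 0.136% of all tested genes. Summed markers of the thick ascending limb stood at 137% to 141% of the wild type mean in PT-I-PpoI libraries and at 94.5% to 106% in wild type libraries, with 7 of 7 above 0 and 2 called higher (Ptger3 and Tmem207). Collecting duct markers stood at 121% to 154% in PT-I-PpoI libraries and at 95.1% to 105% in wild type libraries, with 8 of 8 above 0 and 1 called higher (Avpr2). Proximal tubule markers stood at 67.1% to 94.5% in PT-I-PpoI libraries and at 84.4% to 113% in wild type libraries, with 9 of 10 below 0 and 0 called. In edgeR, 3 of the 10 were lower between the groups at an unadjusted p under 0.05, against 12% of all tested genes in either direction. With the form of name as a term 4 were lower, against 12.6%, and 0 were called. The highest PT-I-PpoI value, 94.5%, was that of the library with a hyphen in its name, and the lowest wild type value, 84.4%, that of the library without one. Between the forms of name, with the group as a term, 3 of these 10 markers were called (Slc34a1, Slc22a6 and Slc7a13). All 3 were higher in libraries with a hyphen, and 3.06% of all tested genes were called in either direction. Of the other markers, 1 of the thick ascending limb (Cldn10) and 1 of the endothelium (Egfl7) were called, both lower in libraries with a hyphen. Between the groups with the form as a term, 4 markers of the thick ascending limb and 1 of the collecting duct were called higher. That fit called 0.351% of all tested genes higher. No proximal tubule marker was at 0 in any library. Single genes weighed heavily in the sums. In wild type cortex, Slc34a1 averaged 6799 of the 14022 CPM of the proximal tubule markers. Umod averaged 3302 of the 4494 CPM of the thick ascending limb markers there. Markers of the distal convoluted tubule, podocytes, endothelium, macrophages and lymphocytes held no gene called between the groups. Their median log2 fold changes were -0.22, 0.15, 0.08, 0.09 and -0.41. The part of these segments in the values of the repair genes was not tested.

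**Figure D3:**
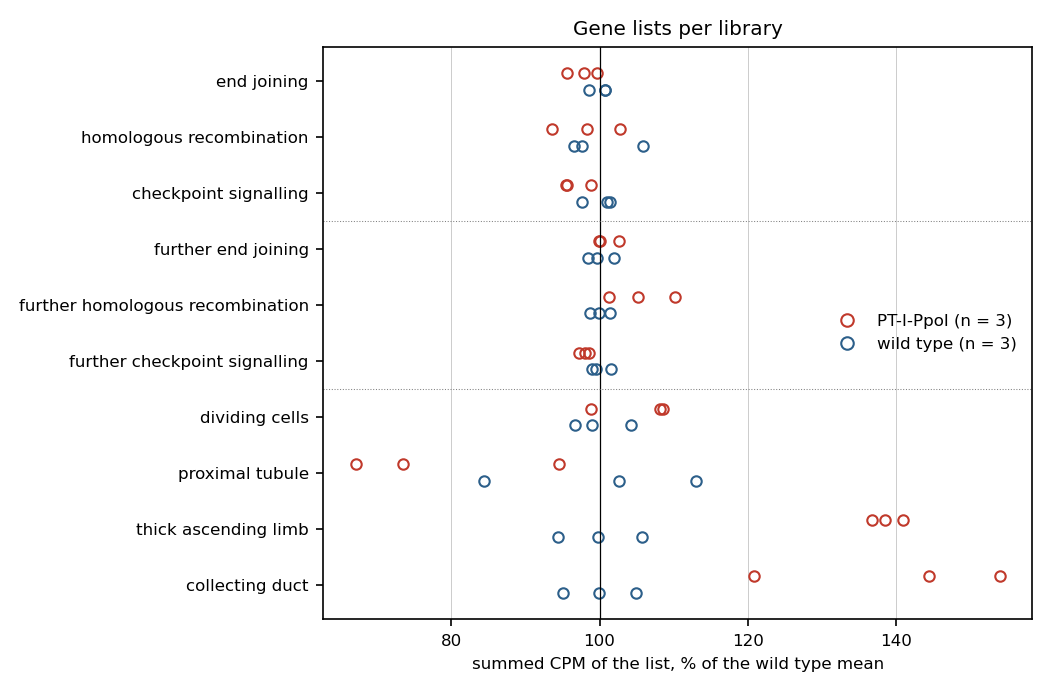
Summed CPM of each gene list in every library, as a percentage of the wild type mean of that list. Circles are single libraries, with PT-I-PpoI drawn above wild type (n = 3 each). The 3 classes of repair and checkpoint genes lie between 93.6% and 105.8%, while the markers of the thick ascending limb lie at 137% to 141% in all PT-I-PpoI libraries.

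Because the forms of library name separated the libraries, the groups were also compared within each form. With the form as a term in the fit, 0 of the 40 genes passed in edgeR, where 0.351% of all tested genes were higher and 0.107% lower. That fit gave 1 higher (Mdc1) and 2 lower (Polq and Rad51d) at an unadjusted p under 0.05, against 12.6% of all tested genes. The log2 fold change of Mdc1 was then 0.26 (adjusted p = 0.308) and that of Rad51d was -0.26 (adjusted p = 0.216). The difference had the same sign within both forms for 19 of the 40 genes (47.5%), against 52.5% of all tested genes.

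Between the forms themselves, with the group as a term, 0 of the 40 genes passed, against 3.06% of all tested genes. At an unadjusted p under 0.05 there were 4: Rnf168 and Wee1 were the higher ones in libraries with a hyphen, and Dclre1c and Rad51d the lower ones. Among all tested genes 18.8% reached that level.

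**Figure D4:**
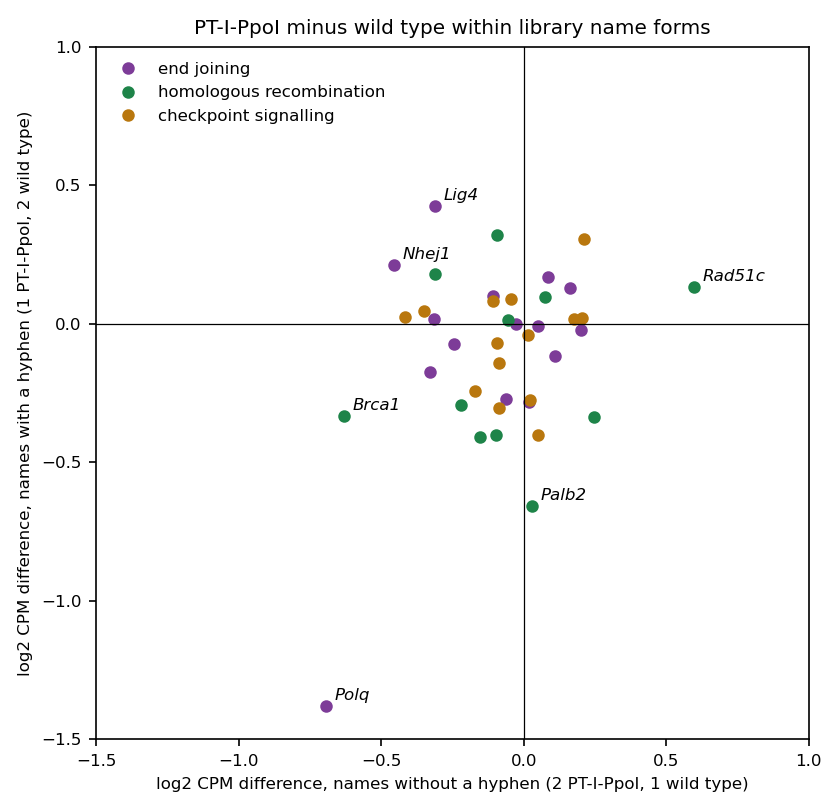
Difference in log2 CPM between PT-I-PpoI and wild type for each of the 40 tested genes, within libraries whose names have no hyphen (x axis, 2 PT-I-PpoI and 1 wild type) and within those with one (y axis, 1 PT-I-PpoI and 2 wild type). Points are genes, coloured by class. Polq is low in both, at -0.69 and -1.38, and 19 of the 40 genes have the same sign in both.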

How the data were processed

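RNA of 6 kidney cortex samples was read as pairs for 100 cycles from stranded mRNA libraries, per the labels' protocols. The authors deposited raw counts of read pairs per gene, with the exon length of each gene in bases. Per the labels' protocols, mapping was done with HISAT2. Counting used featureCounts 1.5.2 with no strand option and no option for reads of several places or genes, per the file headers. The header names an mm10 annotation and the labels' protocols mm9. Of 24313 genes matched by symbol, 99.3% overlapped their GRCm38.p6 (mm10) position, as did 44 of the 44 genes described, so coordinates are mm10. The authors also deposited log2 values on the regularized (rlog) scale for 17918 genes, used only for an alternative. The submitters' processing notes name DESeq2.

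The deposited counts were tested with edgeR 4.0.16 (R 4.3.3), its expression filter (minimum count 10, 13977 genes left), TMM factors, the quasi-likelihood test, two-sided, and Benjamini-Hochberg adjustment over all genes tested with a threshold of 0.05. Intervals are 95% and use the quasi-likelihood F statistic. CPM used the TMM-adjusted totals and FPKM the deposited exon lengths, and log2 CPM a prior count of 2. The procedure was also run on simulated counts. These held no difference between the forms of library name, and that run is not used as support here. No 2 libraries had identical counts in more than 1.80% of the genes tested.

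The 44 genes, the wider lists, the marker lists and the motifs were chosen with earlier results of these data known. Of the wider lists, Shld1, Shld3 and Paxx were not used here, and Shld2 was tested under its older symbol Fam35a. Values in every library are given, in each class, for the 4 genes of smallest p and the 2 highest per length, for genes left out by the filter and for genes whose groups do not overlap. Of each wider list up to 3 genes of smallest p are named, and of marker lists up to 2 of highest CPM. Called markers were named after their values were seen. Alternatives were other scaling factors, other filters, DESeq2 1.42.0, limma 3.58.1 (voom, and on the rlog values), a replicate block, the library name form as a term, and leaving out each library.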

Additional observations from a re-analysis of the deposited data

How the results depend on the processing

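Under all 15 alternatives, 0 of the repair and checkpoint genes and 0 of the wider lists were called, with 38 to 44 of the 44 genes tested. Of 598 fold changes of single genes under these alternatives, 589 moved by less than 1 SE, 9 moved further and 0 passed the threshold. The sign changed in 53 of them, in 16 of the 40 genes. Genes at an unadjusted p under 0.05 numbered 1 with upper-quartile factors, with no filter, with a minimum of 1 CPM in 3 libraries, with limma on the rlog values and with the replicate block, 0 with DESeq2, and 0 to 2 without single libraries. Genes whose groups do not overlap numbered 10 to 11 without single libraries. Smaller groups overlap less often in general, and the share of all tested genes was not computed for these settings. Calls over all genes were 44 higher and 3 lower with no filter, 126 and 59 with DESeq2, 33 and 7 with the replicate block and 49 and 15 with the name form as a term. Without single libraries they ran from 0 to 261 higher and 0 to 364 lower, both highest without PT-I-PpoI replicate 3. The cause was not tested.

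The median log2 fold change of all 40 was -0.010 on the rlog scale, -0.093 with the name form and -0.111 to -0.018 without single libraries. That of checkpoint signalling was -0.026 on the rlog scale and -0.107 to -0.059 without single libraries, and that of end joining -0.106 to 0.024. In the wider lists these ranges were -0.010 to 0.062 for checkpoint signalling (and -0.013 with the name form), -0.0323 to 0.0828 for end joining and 0.039 to 0.122 for homologous recombination. Deviations from the group mean correlated at r = 0.22, -0.13 and 0.16 between same-numbered samples, and at -0.27 to 0.18 between differently numbered ones. With 3 libraries in each group, these values cannot tell whether the numbers pair the samples. Depth limits the scarce genes, most of all those of homologous recombination.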
